A study of Homo sapiens with 4 samples.

Results

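The kallikrein (KLK) and SIGLEC gene clusters lie side by side on the long arm of human chromosome 19, and their CpG methylation was compared between HEK293T cells with and without ZNF274. The stretch ran from 51.3 to 52.2 Mb of chromosome 19 (GRCh37), and its CpGs were taken by position. It held 13717 CpGs with reads of 27710999 on the autosomes and X, and 180 windows of 5 kb (tiles) of 563514 tested. The KLK part, up to 51.6 Mb, had 4933 CpGs in 60 tiles, and the SIGLEC part after it had 8784 CpGs in 120 tiles. All 180 tiles passed the minimum of 20 reads and 5 CpGs in every library. A large cluster of KRAB zinc finger protein (KZFP) genes starts 100 kb beyond the SIGLEC part, at 52.3 Mb, and distances are given from there.

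The assay was enzymatic methyl-seq (EM-seq). Its enzymes turn unmethylated cytosines into bases sequenced as T and leave methylated ones as C. HEK293T is an established human embryonic kidney line. Of its 4 libraries, 2 came from wild-type cells (WT) and 2 from cells with homozygous knockout of ZNF274 (ZNF274KO), made by CRISPR-Cas9 with a pair of guides flanking the gene and grown from sorted single cells. The labels name no other treatment and do not say whether the libraries of a group were separate clones or cultures. The p-values thus measure only the spread between these libraries. Differences that arise between lines grown from single cells cannot be told apart from those of the knockout in this design. Expression was not measured in these libraries, so the cell line could not be checked by markers. Values of a group are given in the order of library number. The level of a region is the percentage of its CpG reads with a methylated cytosine, and a difference is the ZNF274KO mean minus the WT mean in percentage points. A level between the extremes can come from some cells, some chromosome copies or some neighbouring CpGs, which these sums do not tell apart.

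Methylation of CpGs is the common form of DNA methylation in human cells. KZFPs bind DNA through zinc fingers and recruit KAP1 and SETDB1, which deposit the repressive mark H3K9me3. ZNF274 is one of them and is known for marking the 3' ends of other KZFP genes. KLK genes encode secreted serine proteases of prostate, skin and other epithelia and of brain, and form the largest uninterrupted protease gene cluster known in humans. SIGLEC genes encode receptors, mostly of immune cells, that read sialic acids on cell surfaces.

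The targeted gene was checked first. The 501 CpGs of the ZNF274 gene body (chr19:58694396-58724928) had 5158 reads in WT 1 and 4274 in WT 2, against 0 in ZNF274KO 1 and 14 in ZNF274KO 2. The KLK and SIGLEC clusters had 131622, 112285, 118429 and 89723 reads over CpGs in WT 1, WT 2, ZNF274KO 1 and ZNF274KO 2. Per CpG and relative to the autosomes, their depth was 0.903, 0.892, 0.871 and 0.752 in the same order, and that of all chromosome 19 was 0.931, 0.925, 0.837 and 0.824. Depth was thus lower in both ZNF274KO libraries, and over the clusters ZNF274KO 1 was close to WT while ZNF274KO 2 was lowest. The part of depth in the results was not tested. ZNF274KO 1 stood further from WT than ZNF274KO 2 did, being the higher of the pair in 139 of the 180 tiles.

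Sequences from before the starts of genes described below are shown first, from the GRCh37 reference and written 5' to 3' on the strand of the gene, with every CpG in capitals. The first group holds the 250 bases before the outermost transcription start of the KLK and of the SIGLEC genes whose promoters (1 kb either side of the start) differed most, and of the gene in each family whose promoter differed least.
KLK2 before the start, chr19:51364574-51364823, plus strand: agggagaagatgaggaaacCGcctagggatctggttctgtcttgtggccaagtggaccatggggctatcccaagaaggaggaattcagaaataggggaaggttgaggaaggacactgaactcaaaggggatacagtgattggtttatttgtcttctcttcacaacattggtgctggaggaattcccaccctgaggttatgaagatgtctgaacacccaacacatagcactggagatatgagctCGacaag
KLK9 before the start, chr19:51512891-51513140, minus strand: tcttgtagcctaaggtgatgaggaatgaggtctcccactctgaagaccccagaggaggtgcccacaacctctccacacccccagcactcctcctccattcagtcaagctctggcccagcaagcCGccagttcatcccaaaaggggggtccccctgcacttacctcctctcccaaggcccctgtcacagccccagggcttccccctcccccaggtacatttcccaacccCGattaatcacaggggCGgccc
KLK14 before the start, least different KLK, chr19:51587503-51587752, minus strand: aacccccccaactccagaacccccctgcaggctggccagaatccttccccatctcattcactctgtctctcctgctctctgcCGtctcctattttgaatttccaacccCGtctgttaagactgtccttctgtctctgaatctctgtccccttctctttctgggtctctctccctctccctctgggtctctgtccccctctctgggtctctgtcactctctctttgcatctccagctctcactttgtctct
CD33 before the start, chr19:51728070-51728319, plus strand: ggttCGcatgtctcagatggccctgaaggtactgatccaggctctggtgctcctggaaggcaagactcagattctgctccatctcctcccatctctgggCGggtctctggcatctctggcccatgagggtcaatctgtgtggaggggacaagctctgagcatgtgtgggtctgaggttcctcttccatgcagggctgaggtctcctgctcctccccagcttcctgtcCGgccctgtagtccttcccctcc
SIGLEC7 before the start, chr19:51645306-51645555, plus strand: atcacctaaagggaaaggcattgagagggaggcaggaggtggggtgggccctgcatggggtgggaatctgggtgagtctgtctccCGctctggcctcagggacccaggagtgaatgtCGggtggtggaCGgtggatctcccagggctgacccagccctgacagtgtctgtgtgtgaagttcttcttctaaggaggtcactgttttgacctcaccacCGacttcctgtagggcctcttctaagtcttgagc
SIGLEC6 before the start, least different SIGLEC, chr19:52035111-52035360, minus strand: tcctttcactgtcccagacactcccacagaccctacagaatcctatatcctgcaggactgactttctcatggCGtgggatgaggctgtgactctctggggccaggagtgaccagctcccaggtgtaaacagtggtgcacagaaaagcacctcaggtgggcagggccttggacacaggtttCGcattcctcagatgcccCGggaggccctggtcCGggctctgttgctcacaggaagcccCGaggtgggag

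These windows hold 2, 3, 2, 3, 4 and 5 CpGs in the order shown. The 25 protein-coding KLK and SIGLEC genes had a median of 4 CpGs in the 250 bases before the start, from 1 to 15, against a median of 14 over the 1480 protein-coding genes of chromosome 19. With so few CpGs a window carries few reads, 9 to 16 per library for KLK14 and 31 to 45 for SIGLEC6, so levels were compared over the wider promoters and gene bodies. The printed windows did not all repeat the difference of the wider promoter. The KLK2 window stood at 26.3% and 15.8% in WT and 44.4% and 9.09% in ZNF274KO, and the KLK9 window at 14.3%, 35.0%, 43.8% and 23.1%, both with overlapping groups. The CD33 window stood at 6.25% and 3.57% in WT and at 45.2% in ZNF274KO 1, whereas ZNF274KO 2 was close to WT at 6.67%, so the difference of 21.0 points rests on ZNF274KO 1. The SIGLEC7 window stood at 63.0%, 28.6%, 83.3% and 67.5%, without overlap but with WT libraries far apart, a difference of 29.6 points. The KLK14 and SIGLEC6 windows overlapped, and SIGLEC6, at 0% in both WT libraries and in ZNF274KO 2 and at 2.22% in ZNF274KO 1, was the least methylated.

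The second group holds the 300 bases richest in CpGs, outside annotated untranslated sequence, of 3 of the tiles called below, chosen after the calls were known.
CD33, 55 bases after the start, chr19:51728375-51728674, plus strand: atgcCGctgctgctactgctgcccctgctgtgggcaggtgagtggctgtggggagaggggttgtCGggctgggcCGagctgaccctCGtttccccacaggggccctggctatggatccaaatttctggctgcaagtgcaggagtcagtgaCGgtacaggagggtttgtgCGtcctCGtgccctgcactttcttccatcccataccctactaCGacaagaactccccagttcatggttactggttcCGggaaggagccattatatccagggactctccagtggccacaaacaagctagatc
SIGLEC8, within the gene, chr19:51957516-51957815, minus strand: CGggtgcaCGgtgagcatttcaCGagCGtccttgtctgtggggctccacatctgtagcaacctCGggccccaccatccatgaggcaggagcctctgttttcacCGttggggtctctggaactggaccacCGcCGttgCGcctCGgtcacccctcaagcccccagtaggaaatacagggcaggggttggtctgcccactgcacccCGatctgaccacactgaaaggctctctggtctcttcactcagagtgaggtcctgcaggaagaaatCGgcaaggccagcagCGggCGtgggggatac
SIGLEC12, within the gene, chr19:52003818-52004117, minus strand: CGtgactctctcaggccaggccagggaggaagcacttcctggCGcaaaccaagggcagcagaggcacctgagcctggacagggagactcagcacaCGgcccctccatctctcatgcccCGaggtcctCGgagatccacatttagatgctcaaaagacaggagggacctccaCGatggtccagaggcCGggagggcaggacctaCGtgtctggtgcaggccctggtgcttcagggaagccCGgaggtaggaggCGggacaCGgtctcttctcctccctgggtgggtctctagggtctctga

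All 300 bases of the CD33 window lie in an exon of at least 1 annotated transcript, 54 of the SIGLEC8 window do, and none of the SIGLEC12 window. The 9 CpGs of the CD33 window were methylated at 3.92% and 15.1% in WT and at 28.9% and 36.7% in ZNF274KO. The 14 CpGs of the SIGLEC8 window stood at 19.9% and 10.6% in WT and at 29.9% and 24.4% in ZNF274KO. In both windows the ZNF274KO libraries lay above WT, whereas the 11 CpGs of the SIGLEC12 window overlapped between the groups, at 8.70% and 0% in WT and 4.41% and 7.89% in ZNF274KO. The difference of 1.81 points in this window was smaller than that of the whole SIGLEC12 tile described below.

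The first comparison asked whether methylation of the clusters differed between the WT and ZNF274KO libraries. Over all their CpGs the level was 44.1% and 43.5% in WT and 49.8% and 46.4% in ZNF274KO. Both knockout libraries exceeded both WT libraries, with a mean of 43.8% ± 0.422 against 48.1% ± 2.38 (SD, n = 2), 4.32 points apart. The genome-wide level differed by -0.541 points, with overlapping groups, and that of chromosome 19 by 2.74 points, without overlap. For 2 libraries against 2 the two-sided exact permutation test gave p = 0.3333, the smallest p this design allows.

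In the KLK part the level was 52.4% and 51.1% in WT and 58.2% and 55.2% in ZNF274KO. The groups did not overlap, and the means were 51.8% ± 0.896 and 56.7% ± 2.09. In the SIGLEC part the level was 39.3% and 38.8% in WT and 44.9% and 41.4% in ZNF274KO. The groups did not overlap here either, with means of 39.1% ± 0.298 and 43.1% ± 2.54. The edgeR quasi-likelihood test, run on every bin of equal size in the genome, gave the KLK difference of 4.90 points an adjusted p = 0.394 (unadjusted p = 0.00698) and the SIGLEC difference of 4.09 points an adjusted p = 0.450 (unadjusted p = 0.0127). Neither part was called, where 0.818% of all 300 kb bins and 1.38% of all 600 kb bins were. Knockout libraries above both WT libraries, as here, were found in 7.92% of the 300 kb bins and 7.34% of the 600 kb bins. Without ZNF274KO 1 the differences were 3.42 and 2.29 points, and without ZNF274KO 2 they were 6.38 and 5.88 points.

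The KLK part was more methylated than the SIGLEC part in every library, by 13.1 and 12.3 points in WT and by 13.2 and 13.8 points in ZNF274KO. The gap was 0.813 points wider in ZNF274KO. This lies barely beyond the spread within groups (SD 0.598 in WT and 0.444 in ZNF274KO, n = 2; exact permutation test, p = 0.3333). The gap widened by 0.198 points when every CpG with at least 3 reads in every library counted equally in place of every read. It widened by 0.390 points without WT 2, by 0.499 without ZNF274KO 2 and by 1.24 without WT 1. The size of this difference between the parts thus depended on the weighting and on single libraries. Within the SIGLEC part the first 300 kb, from CTU1 and SIGLEC9 to LIM2, differed by 5.44 points and the last 300 kb, from SIGLEC10 to SIGLEC14, by 2.73 points. Their WT means were 48.5% and 27.5%. The difference was 2.71 points larger in the first stretch, again with groups that did not overlap and the smallest p of 0.3333.

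The neighbourhood gave the scale for these values. The 300 kb before the KLK part differed by 0.739 points, from 66.4% and 63.8% in WT to 67.1% and 64.6% in ZNF274KO, and the groups overlapped. The 100 kb between the SIGLEC part and the KZFP cluster differed by 5.62 points, and the first 300 kb of the KZFP cluster by 8.49 points, from 54.9% and 52.9% to 64.5% and 60.3%. The KLK difference exceeded that of the stretch before it by 4.16 points and fell short of that in the KZFP cluster by 3.59 points. The SIGLEC difference fell short of that in the KZFP cluster by 4.40 points. In each of these 3 contrasts the groups did not overlap, and the exact permutation test gave its smallest p of 0.3333. Against the 100 kb before the KZFP cluster the SIGLEC difference fell short by 1.53 points, with overlapping groups (exact permutation test, p = 0.667). The KLK and SIGLEC differences exceeded that of all chromosome 19 by 2.16 and 1.35 points, each without overlap (exact permutation test, p = 0.3333).

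The next comparison followed the difference with distance from the KZFP cluster in bins of 100 kb. In 8 of 9 bins both knockout libraries exceeded both WT libraries, an arrangement found in 8.86% of the 28518 bins of the genome. The largest difference was 500 to 600 kb from the KZFP cluster, in the bin with CD33 and SIGLECL1, where the level was 32.6% and 31.0% in WT and 48.1% and 39.0% in ZNF274KO. That is a difference of 11.8 points, and the bin before it, with SIGLEC9 and SIGLEC7, differed by 6.98 points. The smallest difference was 200 to 300 kb from the KZFP cluster, in the bin with SIGLEC6 and ZNF175, where the level was 25.1%, 25.1%, 25.7% and 25.2%. The bin nearest to the KZFP cluster, with SIGLEC5 and SIGLEC14, differed by 2.36 points.

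Within the 9 bins the difference did not rise steadily towards the KZFP cluster. Over the last stretch it did become larger, from 0.352 points 200 to 300 kb away to 2.36 in the next bin and 5.62 in the 100 kb beside the KZFP cluster, a stretch outside both clusters. The last values rest on ZNF274KO 1, without which they were 0.729 and 2.30 points. Without this library the bin with CD33 differed by 7.23 points, which was smaller but still the largest of these values. Across the 180 tiles, which leave out those last 100 kb, share the same 4 libraries and are no replicates, Spearman's rho of the difference with distance was 0.358, higher far from the KZFP cluster than near it. It was 0.170 over the KLK tiles and 0.507 over the SIGLEC tiles. The mean WT level also varied with distance, with a rho of 0.394 over all tiles, -0.260 over KLK tiles and 0.322 over SIGLEC tiles. Whether the difference follows distance or the WT level was not tested. No bin was called by edgeR at an adjusted p under 0.05, as 0.515% of all bins were, whereas 6 of 9 had an unadjusted p under 0.05, against 5.19% of all bins. With limma none was called and 4 had such an unadjusted p. Leaving out WT 1, WT 2 or ZNF274KO 2 gave 1 called bin each, and leaving out ZNF274KO 1 gave 0.

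**Figure D1:**
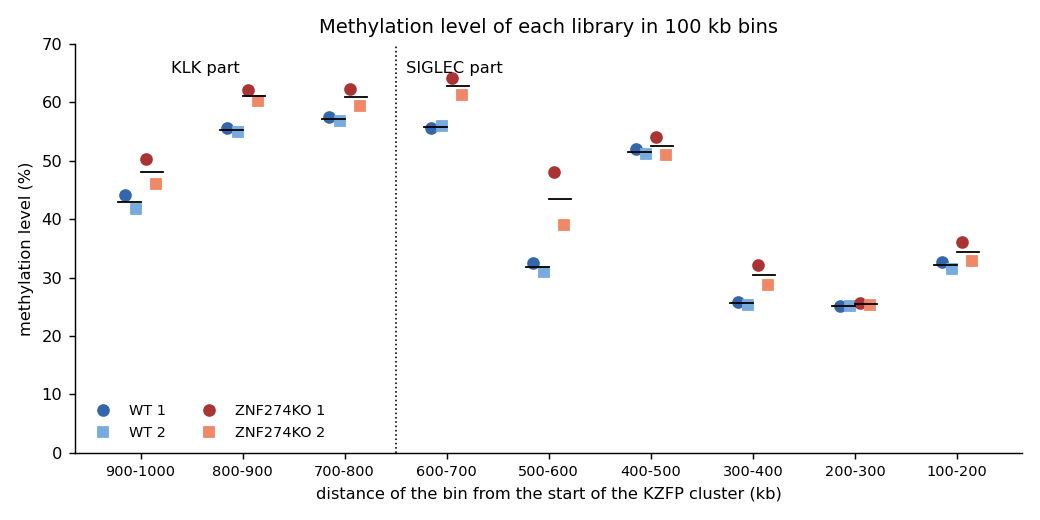
Methylation level (%) of each library in the 9 bins of 100 kb, ordered from the bin farthest from the KZFP cluster (left) to the nearest (right); points are libraries and short lines the group means. ZNF274KO lay farthest above WT 500 to 600 kb away, and the 4 libraries were closest 200 to 300 kb away, at 25.1% to 25.7%.

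Tiles of 5 kb showed where within the clusters the difference lay. Of the 180 tiles, 153 had a positive difference. In 104 (57.8%) both knockout libraries exceeded both WT libraries, against 13.5% of all tiles of the genome, and in 10 (5.56%) both lay below, against 22.3%. The median difference was 4.67 points, with quartiles of 1.52 and 8.48, where the median over all tiles of the genome was -0.582 and over those of chromosome 19 was 0.624. By part, the ZNF274KO libraries lay above in 35 of 60 KLK tiles and in 69 of 120 SIGLEC tiles, with median differences of 5.54 and 4.01 points. The SIGLEC tiles also cover genes of neither family, such as CTU1, VSIG10L and ZNF175.

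The test called 5 tiles, or 2.78%, all higher in ZNF274KO and all in the SIGLEC part, against 0.486% of all tiles called in either direction and 0.473% called higher. The tile with the start of CD33, a receptor of myeloid cells and the member after which the CD33-related SIGLECs are named, showed the largest difference (chr19:51725001-51730000). Its 51 CpGs were methylated at 6.93% and 8.29% in WT and 33.5% and 24.5% in ZNF274KO, a difference of 21.4 points (edgeR, adjusted p = 0.000243). The tile over the pseudogene SIGLEC22P (chr19:51710001-51715000) stood at 30.6%, 25.3%, 52.9% and 41.7% in the same order (adjusted p = 0.0352). The tile with the end of CD33 and the start of SIGLECL1 (chr19:51745001-51750000) stood at 15.6%, 15.4%, 44.1% and 25.6% (adjusted p = 0.0371).

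The other 2 called tiles lay closer to the KZFP cluster and changed less. The tile in SIGLEC8, a receptor of eosinophils and mast cells (chr19:51955001-51960000), stood at 10.2% and 10.7% in WT and 21.9% and 18.3% in ZNF274KO, a difference of 9.70 points (edgeR, adjusted p = 0.0157). The tile in SIGLEC12 (chr19:52000001-52005000) stood at 4.07%, 2.39%, 11.6% and 8.63%, a difference of 6.89 points (adjusted p = 0.00811). All 5 tiles were low in WT, between 3.23% and 28.0% on average, and reached at most 47.3% on average in ZNF274KO. Without ZNF274KO 1 only the tile at the CD33 start was called (adjusted p = 0.00228), and the tile with the end of CD33 and the start of SIGLECL1 differed by 10.1 points, against 19.3 with all libraries and 28.6 without ZNF274KO 2. Without WT 1, WT 2 or ZNF274KO 2 there were 13, 16 and 17 called tiles. On log2 ratios with limma no tile was called, and 46 had an unadjusted p under 0.05. With CpGs outside unique sequence left out, the tile in SIGLEC8 differed by 8.48 points (adjusted p = 0.145) and the tile with the end of CD33 and the start of SIGLECL1 by 17.4 points, against 19.3 with all CpGs (adjusted p = 0.111). Neither was then called, although the differences were nearly as large.

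In the KLK part no tile was called by edgeR, and 20 of 60 had an unadjusted p under 0.05, all of them higher in ZNF274KO, against 6.51% of all tiles. With limma none was called either, and 11 had such an unadjusted p. The largest positive differences among uncalled tiles with at least 10 CpGs were those of the tile next to the called one in SIGLEC22P, at 18.6 points, and a tile with no annotated gene 632.5 kb from the KZFP cluster, at 18.3 points, both in the SIGLEC part. The highest difference of a KLK tile was 17.2 points.

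Tiles in which both ZNF274KO libraries exceeded both WT libraries stood next to each other in runs. The longest run spanned 20 tiles or 100 kb (chr19:51695001-51795000) from the pseudogene SIGLEC21P over CD33 and SIGLECL1 to SIGLEC24P. Its level was 33.3% and 31.3% in WT and 48.9% and 39.9% in ZNF274KO. The next run, of 13 tiles around SIGLEC9 and SIGLEC7 (chr19:51625001-51690000), stood at 46.7% and 48.8% in WT and at 61.8% and 56.4% in ZNF274KO. In the KLK part the longest runs were 9 tiles over KLK6, KLK7 and most of KLK8 (chr19:51460001-51505000), with a difference of 7.38 points, and 7 tiles from KLK2 to the 3' end of KLK4 (chr19:51375001-51410000), with 8.75 points. The tile over most of KLK8, at the end of the run of 9, differed by only 1.70 points. Runs of 4 tiles lay over most of KLK5 and of KLK13 and the sequence beyond their 3' ends, with differences of 7.19 and 9.99 points. They ended before the tiles with the starts of these genes, in which the groups overlapped. Over the narrower promoters KLK5 differed by 6.55 points without overlap, and KLK13 by 4.25 points with overlap. All the runs were picked for their direction, so their differences describe them and were not tested.

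**Figure D2:**
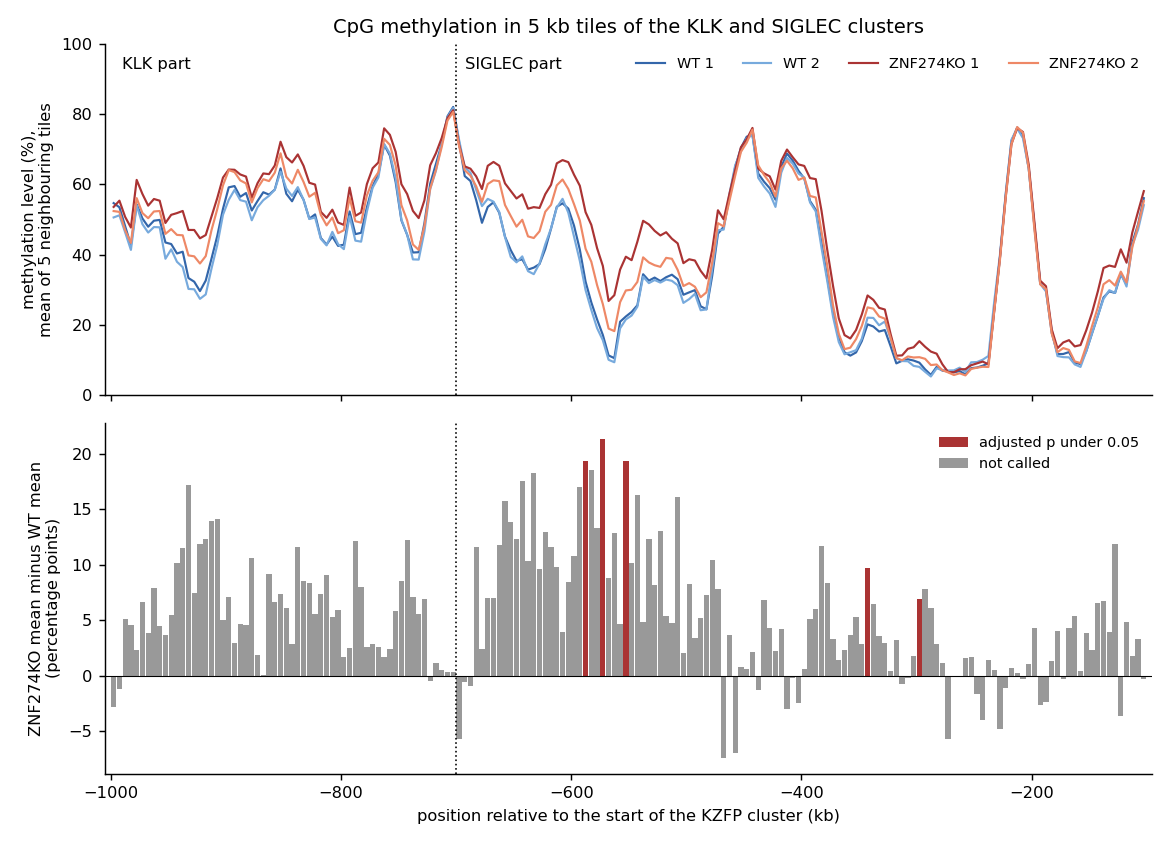
Top, methylation level (%) of each library along the clusters, averaged over 5 neighbouring tiles of 5 kb; bottom, the difference between the group means in each tile (percentage points), with called tiles in dark red. The horizontal axis is the position relative to the start of the KZFP cluster (kb), and the dotted line parts KLK from SIGLEC tiles. ZNF274KO 1 was the higher knockout library in 139 of the 180 tiles, the difference was positive in 153, and the 5 called tiles all lay in the SIGLEC part.

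The 5 tiles with the largest negative differences all lay in the SIGLEC part, 1 of them inside a SIGLEC gene. The tile over IGLON5 and VSIG10L (chr19:51830001-51835000) stood at 52.0% and 59.0% in WT and 47.9% and 48.3% in ZNF274KO. A second tile over VSIG10L (chr19:51840001-51845000) stood at 34.8%, 30.2%, 26.8% and 24.2%. In both, the ZNF274KO libraries lay below WT, by 7.43 and 7.02 points. The other 3 were the tile over CTU1, a tRNA-modifying enzyme (-5.76 points), a tile within SIGLEC6 (-5.73 points) and the tile at the start of ZNF175 (-4.80 points), itself a zinc finger gene with a KRAB domain. None of the 5 was called, with edgeR adjusted p-values from 0.291 to 0.717.

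Gene bodies, from transcription start to end, gave the difference by gene. Of 39 genes, 1 body was called, CD33, against 0.918% of 19829 bodies of the genome. Both knockout libraries exceeded both WT libraries in 10 of 16 KLK bodies, 8 of 10 SIGLEC bodies and 3 of the 13 other genes, against 9.09% in the genome. Both lay below in 2 of the 39 bodies, SIGLEC6 and VSIG10L, against 30.6%. The median difference was 5.88 points for the KLK family, 7.76 for the SIGLEC family and -0.110 for the others, with -0.931 over all bodies tested. ZNF274KO 1 lay above ZNF274KO 2 in 15 of the 16 KLK bodies and in all 10 SIGLEC bodies.

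Among the KLK genes with prostate roles, KLK2, whose protease activates that of KLK3, stood at 30.7% and 27.3% in WT and 43.6% and 37.6% in ZNF274KO. Its difference of 11.6 points was the largest of the family and was not called (edgeR, adjusted p = 0.0951). KLK3, the prostate-specific antigen that liquefies semen, stood at 38.8%, 42.1%, 56.7% and 45.9%, a difference of 10.9 points. KLKP1, a transcribed pseudogene next to KLK2, stood at 48.5%, 43.2%, 57.7% and 53.8%. In all 3 the groups did not overlap. KLK4, which processes tooth enamel proteins, overlapped between the groups at 57.7%, 48.4%, 57.4% and 58.3%, and so did KLK15. KLK1, the kallikrein that releases kinins from kininogen, stood at 50.1%, 52.6%, 61.1% and 55.9%, with groups that did not overlap.

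Of the proteases that shed cells from the skin surface, KLK7 stood at 43.4% and 42.5% in WT and 55.2% and 52.7% in ZNF274KO, a difference of 11.0 points. KLK5 stood at 66.6%, 64.7%, 72.5% and 69.8%, and KLK14, the third of this kind, at 74.1%, 75.3%, 78.1% and 74.6%. KLK7 and KLK5 did not overlap between groups, whereas KLK14 did. KLK6, a protease found in brain, stood at 48.2%, 49.4%, 62.6% and 55.5%, a difference of 10.2 points. KLK8, known as neuropsin, was the only KLK body with a negative difference, of -1.01 points, at 53.8%, 56.0%, 55.1% and 52.7%, and overlapped between groups. The bodies of KLK9, KLK10 and KLK12 lay higher in ZNF274KO without overlap, by 7.48, 4.27 and 4.92 points, and those of KLK11 and KLK13 overlapped, at 2.502 and 5.39 points. No KLK body was called by edgeR, where 6 of 16 had an unadjusted p under 0.05 against 7.22% of all bodies, and none by limma, where 9 had.

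Among the SIGLEC genes, the CD33 body (chr19:51728320-51747115, plus strand) stood at 9.22% and 8.35% in WT and 26.2% and 17.7% in ZNF274KO. The means were 8.78% ± 0.621 and 21.9% ± 6.07 (SD, n = 2), a difference of 13.2 points and the largest of the 39 bodies (edgeR, adjusted p = 0.00373). Without ZNF274KO 1 the difference was 8.87 points and was not called (adjusted p = 0.195), nor was it with limma (adjusted p = 0.171). SIGLEC10, found on B cells and known to bind CD24, stood at 50.7%, 48.3%, 65.4% and 57.5%, and SIGLEC7, a receptor of natural killer cells, at 40.9%, 44.04%, 54.8% and 53.7%. Both lay higher in ZNF274KO without overlap, by 11.9 and 11.8 points, and were not called (edgeR, adjusted p = 0.212 and 0.208).

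SIGLECL1 differed by 10.9 points, SIGLEC9 by 8.04, SIGLEC8 by 7.49 and SIGLEC12, whose human protein has lost sialic acid binding, by 4.63, each without overlap and none called. SIGLEC6, a receptor known from placenta, went the other way, at 8.83% and 8.70% in WT and 7.29% and 6.69% in ZNF274KO. SIGLEC5 and SIGLEC14, an inhibitory and an activating receptor with nearly identical ligand-binding parts, differed by 1.83 and 2.46 points, the latter with overlap. Of their CpGs, 61.8% and 58.3% lay in a stretch of 50 bases that occurs once in the genome after conversion, against 79.8% over both clusters, so reads may have been placed on the wrong copy and these 2 values are uncertain. The 3 bodies with the smallest or negative differences, SIGLEC6, SIGLEC5 and SIGLEC14, were the 3 nearest to the KZFP cluster, with 2 of them uncertain as said. Their WT means were low, at 8.76%, 12.5% and 6.93%. CD33 and SIGLEC12, with WT means of 8.78% and 6.60%, differed by 13.2 and 4.63 points. Any part of distance or WT level in this order was not tested.

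**Figure D3:**
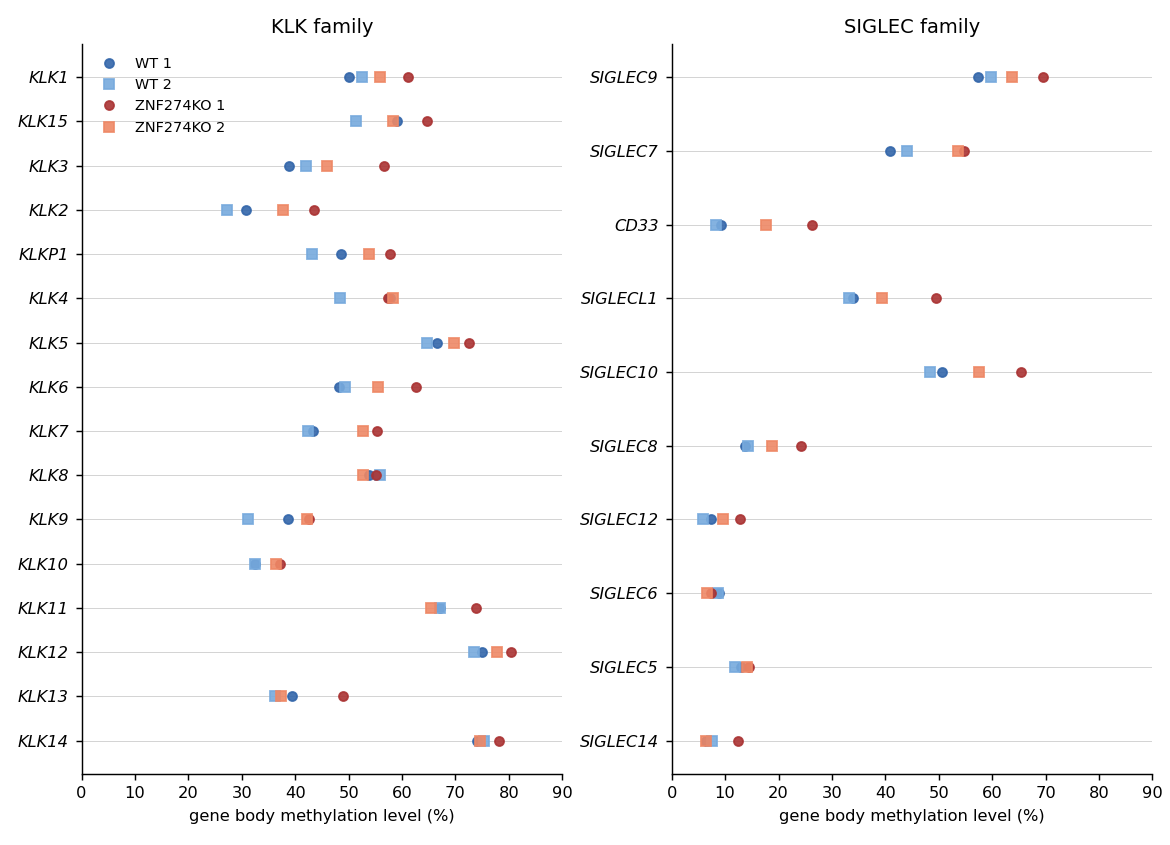
Gene body methylation level (%) of each library for the 16 KLK genes (left) and the 10 SIGLEC genes (right), in genome order from top to bottom; each point is a library. CD33 moved from 9.22% and 8.35% in WT to 26.2% and 17.7% in ZNF274KO, and KLK8 and SIGLEC6 were the bodies with a negative difference.

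The 13 other genes in and between the clusters had no shared starting level. CTU1, ETFB of the electron transfer flavoprotein, NKG7 of cytotoxic lymphocytes, LIM2 of the lens and C19orf84 had WT body levels between 74.2% and 83.6% and differences between -1.96 and 1.51 points. CEACAM18 and CLDND2 were low in WT, at 14.0% and 9.02% on average, and differed by -0.221 and 0.732 points. In all 7 the groups overlapped, as they did in ZNF175, whose body stood at 81.8% and 79.7% in WT and 80.2% and 81.1% in ZNF274KO, and in SPACA6, which differed by -1.01 points. VSIG10L was the only one of these bodies that lay below WT in both ZNF274KO libraries, with a difference of -6.16 points. IGLON5 next to it and a pair of read-through genes known by identifier alone, ENSG00000269741 and ENSG00000269403, lay above without overlap, by 4.05, 4.30 and 3.01 points. The body of ENSG00000269741 lies within those of KLK8 and KLK9, and its promoter nearly coincides with that of KLK9. Its CpGs are thus counted both in the KLK family and among the other genes. Of the 13, none was called by edgeR, where 0.918% of all bodies were, and 1 had an unadjusted p under 0.05, close to the 7.22% of all bodies. Whether these genes differed from the KLK and SIGLEC families was not tested.

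Promoters, 1 kb either side of the outermost start, gave the same order of the families by median. They share CpGs with the gene bodies, so this is no independent repeat. Of 39, 1 was called, that of CD33, against 0.248% of 19747 promoters. Both knockout libraries exceeded both WT libraries in 9 of 16 KLK promoters, 8 of 10 SIGLEC promoters and 2 of the 13 others, against 14.2% in the genome. The median difference was 4.64 points in the KLK family, 10.5 in the SIGLEC family, 0.693 in the others and -0.207 over all promoters tested.

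The CD33 promoter, printed above in part and lying within the called tile at the start of the gene, had 33 CpGs. They were methylated at 7.02% and 9.20% in WT and 36.7% and 26.9% in ZNF274KO. The means were 8.11% ± 1.54 and 31.8% ± 6.93 (SD, n = 2), a difference of 23.7 points (edgeR, adjusted p = 0.00872). It was called with each of the 4 libraries left out in turn and around the start of the canonical transcript (adjusted p = 0.0195), but not with 500 bases either side, where the difference was 28.4 points (adjusted p = 0.155), nor with limma (adjusted p = 0.335). SIGLEC7 followed with 57.3%, 53.9%, 68.0% and 76.7%, a difference of 16.8 points, SIGLECL1 with 15.6 points, SIGLEC10 with 13.9 and SIGLEC12 with 12.4, each without overlap and none called. Around its canonical start the SIGLECL1 promoter differed by 7.39 points, again without overlap. SIGLEC6, SIGLEC5 and SIGLEC14, with WT means between 5.51% and 11.4%, differed by -2.00, 3.12 and -3.21 points. The copies of the last 2 share most of their promoter sequence, with 27.5% and 29.4% of CpGs in unique stretches.

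In the KLK family the promoter of KLK2 differed most. It stood at 24.0% and 17.6% in WT and 53.1% and 33.7% in ZNF274KO, a difference of 22.6 points over 14 CpGs (edgeR, adjusted p = 0.358). Around the start of its canonical transcript, within the same gene, it stood at 10.4%, 11.8%, 25.8% and 24.8%, a difference of 14.2 points (adjusted p = 0.203). The groups did not overlap at either start. KLK9, whose promoter is shared with a read-through transcript into KLK8, differed by 15.9 points, at 39.9%, 29.4%, 48.8% and 52.3%, and KLK15 and KLK6 differed by 9.24 and 8.53 points. KLK11 had the only negative difference around the outermost starts, of -1.67 points, and KLK14 differed by 0.586 points. The choice of start changed several of these values. Around canonical starts KLK15 differed by 0.614 points with overlapping groups, KLK14 by 3.70 points with overlap, and KLK11 by 2.36 points without. The KLK8 promoter, at 3.42 points with overlap around its outermost start, there lay lower in both knockout libraries, at 51.7% and 57.1% in WT and 45.9% and 44.1% in ZNF274KO, a difference of -9.39 points that was not called (edgeR, adjusted p = 0.882). No KLK promoter was called by edgeR or limma, each of which gave 3 of 16 an unadjusted p under 0.05, against 6.05% of all promoters with edgeR. The ZNF175 promoter stood at 8.63%, 10.6%, 5.79% and 4.79%, lower in both ZNF274KO libraries by 4.32 points and not called (adjusted p = 0.671).

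The difference at CD33 was then followed along the gene. The 10 CpGs in the 1 kb before its start stood at 5.45% and 1.15% in WT and 34.1% and 13.3% in ZNF274KO, and the 23 CpGs in the 1 kb after it at 8%, 13.5%, 37.9% and 31.4%. Further into the gene the 47 exonic CpGs differed by 8.77 points and the 84 intronic CpGs by 12.1 points. In each of the 4 pieces both knockout libraries exceeded both WT libraries. In bins of 2 kb the largest differences lay outside the gene, 29.2 points at 23 kb and 28.2 points at 15 kb before the start, and were followed by 24.4 points in the bin after the start. The pieces, and the bin 15 kb before the start, lie in called regions, the bin at 23 kb does not, and neither pieces nor bins were tested.

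**Figure D4:**
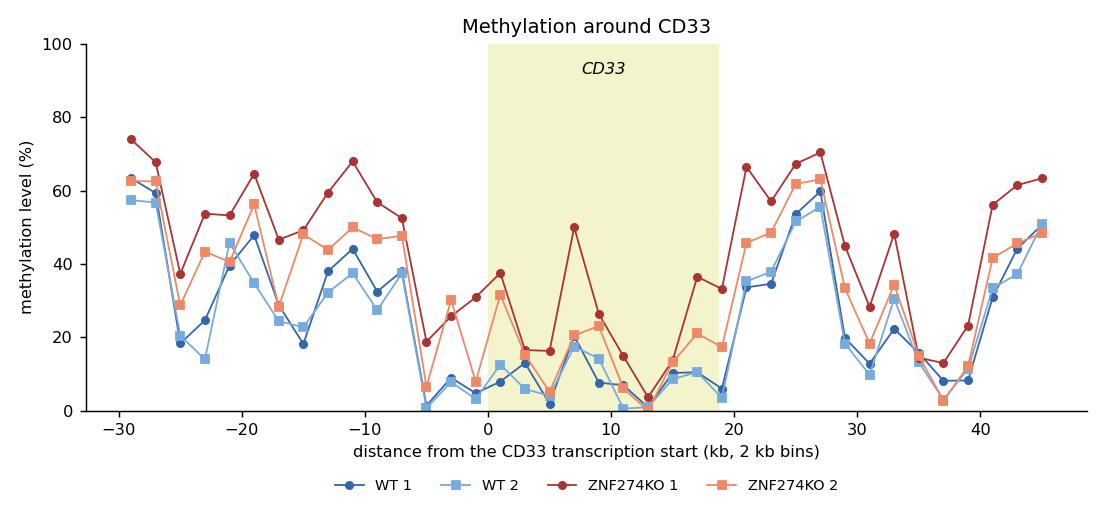
Methylation level (%) of each library in bins of 2 kb on both sides of the CD33 transcription start, with the gene shaded. WT fell to 1.35% and 0.676% in the bin 5 kb before the start, where ZNF274KO stood at 18.8% and 6.52%, and ZNF274KO 1 lay above both WT libraries in all bins but 1.

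Sequence context separated the CpGs further. CpGs with fewer than 10 CpGs within 100 bases either side made up 82.3% and stood at 44.3% and 43.8% in WT and 51.0% and 47.1% in ZNF274KO, a difference of 5.01 points. The denser ones stood at 42.8%, 41.8%, 43.2% and 42.8%, a difference of 0.722 points. In the SIGLEC part the dense CpGs differed by -1.08 points and the sparse ones by 5.04, and in the KLK part by 3.52 and 5.18 points. By position, exons outside promoters differed by 6.81 points in the KLK part and by 0.668 in the SIGLEC part. These exons, like the dense and sparse CpGs, were taken over a whole part and not over the families alone. CpGs between genes differed by 4.08 and 5.46 points. These classes were compared as descriptions, with no test.

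To see at which starting levels the groups differed, CpGs with at least 5 reads in WT 1 were classed by their level there and read out in the other 3 libraries. Those under 20% in WT 1, 40.4% of the total, stood at 6.13% in WT 2, 12.8% in ZNF274KO 1 and 8.69% in ZNF274KO 2. Those from 20% to 80% stood at 50.8%, 62.2% and 56.7%, and those over 80% at 88.1%, 90.04% and 89.2%. The ZNF274KO mean exceeded WT 2 by 4.61, 8.67 and 1.57 points in these classes, so the largest excess lay at CpGs of intermediate level. The order was the same in the KLK part (5.40, 8.87 and 1.75 points) and in the SIGLEC part (4.39, 8.54 and 1.41 points). The SIGLEC part held more CpGs of the lowest class, 46.9% against 28.8% in the KLK part.

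Genes that work with these families elsewhere in the genome were listed for comparison. For the kallikreins these were 17 genes for inhibitors such as SPINK5 and A2M, substrates such as KNG1, SEMG1 and DSG1, and receptors such as F2RL1. For the SIGLECs they were 13 genes, with SIGLECs encoded elsewhere such as CD22 and SIGLEC1, the adaptor TYROBP, the phosphatases PTPN6 and PTPN11, and enzymes of sialic acid synthesis such as GNE and CMAS. No gene body of either list was called by edgeR, with 1 of 17 and 0 of 13 at an unadjusted p under 0.05, nor by limma, with 2 and 0. Over all bodies edgeR called 0.918% and gave 7.22% such an unadjusted p, a share to which 1 of 17 is close. Both ZNF274KO libraries lay above WT in 3 of 17 and 1 of 13 bodies, against 9.09% of all bodies, and below in 5 and 4, against 30.6%. The median differences were -0.415 and -0.836 points. Their promoters had medians of 0.755 and -0.650 points. Both ZNF274KO libraries lay above WT in 4 and 2 promoters, against 14.2% of all promoters, and below in 2 and 5, against 20.8%. No promoter was called, where 0.248% of all were, and 1 in each list had an unadjusted p under 0.05 by edgeR, against 6.05% of all, and 2 and 0 by limma.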

How the data were processed

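The 4 EM-seq libraries of HEK293T cells were assigned to WT or ZNF274KO, and numbered, from their labels. Per the methods, the authors ran Msuite2 with HISAT2 as mapper against hg19 plus rDNA. They deposited, per library, the read counts of each base at each CpG, neither pooled nor normalised. Duplicate and mapping-quality filters are not given in the sources used here. C was taken as methylated and T as unmethylated, over both strands. A read spanning several CpGs counts at each. All sites lay on a CG of GRCh37, and genes came from GENCODE release 44 mapped to that build. Median depth was 10, 9, 9 and 8 reads per CpG in WT 1, WT 2, ZNF274KO 1 and ZNF274KO 2.

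Counts were summed over tiles of 5 kb, bins of 100, 300 and 600 kb, gene bodies and promoters of the autosomes and X, with at least 20 reads and 5 CpGs in every library. The main test was edgeR's quasi-likelihood test (version 4.0.16, R 4.3.3). It modelled the log-odds of methylation by group, with each library given its own coefficient. P-values were adjusted (Benjamini-Hochberg) over each whole table, and adjusted p under 0.05 counted as called. The model was tested on simulated data, in which the planted differences were larger than any reported here, so smaller ones were not covered. Alternatives were limma (version 3.58.1, log2 ratios, pseudocount 1), a replicate block, centring, other minimums, other sizes of tiles and promoters, and fits without each library. The members and gene lists were chosen with earlier results of these data known. All KLK and SIGLEC genes of the region, ZNF175, any other called gene and the 5 largest and 5 smallest tile differences were named. Promoter sequences were chosen by the largest and the smallest promoter difference in each family, and the 50 bases after the start are not shown. A split by repeat masking was not run, since the reference used marks no repeats. Figures were drawn with matplotlib 3.10.9, and sums were made with pandas 2.3.3 and numpy 2.4.6 under Python 3.11.15, with scipy 1.17.1 for rank correlations.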

Additional observations from a re-analysis of the deposited data

Results flagged for a closer look

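CpG-dense positions, those with 10 or more CpGs within 100 bases either side, stood apart because the ZNF274KO libraries lay above both WT libraries in the KLK part and below both in the SIGLEC part. In the KLK part the 874 dense CpGs stood at 40.0% and 39.7% in WT and 44.1% and 42.6% in ZNF274KO, a difference of 3.52 points. In the SIGLEC part the 1558 dense CpGs stood at 44.4%, 43.3%, 42.6% and 43.0%, a difference of -1.08 points (SD 0.832 in WT and 0.279 in ZNF274KO, n = 2). The dense CpGs were taken over the whole part, which also holds genes of neither family, so they do not describe the SIGLEC genes alone. The difference between the parts was not tested.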

How the results depend on the processing

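The KLK and SIGLEC differences kept their direction and stayed uncalled under every alternative that gave a p. The unweighted mean over CpGs, 4.73 and 4.53 points, was not tested. With a replicate block the KLK part came to an adjusted p = 0.0715. Calls depended on the library set and the model. For 5 kb tiles, 5 called by default, the count was 21 with the replicate block, 0 with limma and 12 centred on the genome-wide level, and it ranged from 1 to 17 with 1 library left out. For 100 kb bins, 0 by default, the replicate block gave 2 and the libraries left out 0 to 1. For gene bodies, 1 by default, the replicate block gave 2, limma 0 and the libraries left out 0 to 2. For promoters, 1 by default, the replicate block gave 3, limma 0, 500 bases either side 0 and the libraries left out 1 to 3. The cause was not tested. Same-numbered libraries did not deviate together over tiles (r = -0.108), so the numbers were used to name libraries and not to pair them. This correlation cannot show whether equal numbers share a batch, and the labels do not say. With the numbers crossed, an alternative chosen after seeing the data, 22 tiles, 2 bins, 2 bodies and 4 promoters were called. Where a library was left out, the remaining one was taken to vary as much as the libraries of the intact group.

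The KLK minus SIGLEC difference was 0.813 points by default, 0.198 as an unweighted mean over CpGs, and 0.390 to 1.24 with 1 library left out. Spearman's rho with distance was 0.358 by default, 0.395 in 10 kb tiles and 0.291 to 0.354 with 1 library left out. Depth limits what the single promoters can show, since the KLK2 promoter had as few as 89 reads in a library. In the 5 kb tiles the median was 456 reads in the lowest library and 679.5 in the highest. The bin values without each ZNF274KO library were added after seeing the data.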
